A study of Homo sapiens with 3 samples.

Results

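The HOX genes were read out in HEK293T cells, a human embryonic kidney line with SV40 large T antigen, on 3 expression arrays. Members were all probe sets whose single annotated gene symbol was HOXA, HOXB, HOXC or HOXD followed by a number of 1 to 13. This gave 31 of 22277 probe sets, for 24 genes. The choice used names alone and no measured value, though it was made with earlier results of these data known. The 3 arrays differed in the guide RNA that had been transfected with dCas9VP160, a nuclease-dead Cas9 fused to a VP16-derived activation domain, and all 3 shared that activator. The sgIL1RN1~3 guides target the promoter of IL1RN. The sgTetO guide targets the TetO promoter, a bacterial operator sequence for which the labels give no human gene. The sgTetOmut guide is a mutant form of sgTetO with no target and serves as the control. For the IL1RN guides both of these arrays are called controls below, which for sgTetO is a choice made here. Each guide was measured on 1 array, from a culture of 1 cell line transfected with Fugene HD, so no value has a replicate error, no test between guides was possible, and no difference has a replicate check. No HOX gene was a target of any guide, so the comparison asks how far these untargeted genes differed between guides.

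HOX genes encode homeodomain transcription factors that specify position along the body axis. In mammals they lie in 4 clusters, HOXA on chromosome 7, HOXB on chromosome 17, HOXC on chromosome 12 and HOXD on chromosome 2, and genes with the same number in different clusters are paralogs. Low numbers lie at one end of a cluster and are used early and towards the head, high numbers at the other end, late and towards the tail. Polycomb proteins hold silent parts of the clusters repressed and MLL-type histone methyltransferases keep active parts on, so that cultured cells often retain a HOX pattern of their origin. In the kidney, paralogs of number 11 are known from the mouse for their role in the metanephros.

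The deposited values are log2 values per probe set. A probe set was taken as above background on an array when it exceeded the highest of the 27 chip control sets for Bacillus subtilis transcripts there. That value was 3.40 on sgIL1RN1~3, 3.40 on sgTetO and 3.29 on sgTetOmut. Since probe sets differ in how strongly they bind, a level was set against this background and against the same set on other arrays, and not against another set. Markers of the kidney line and of other cells were read against the same background. All 8 HEK293 markers measured, among them VIM, KRT18, PAX2, NEFL and CDH2, were above background on every array, with KRT8 and LHX1 nearest to it. Of markers of other cells, 3, 3 and 4 of 7 for blood and endothelium were above it on sgIL1RN1~3, sgTetO and sgTetOmut, 7, 6 and 8 of 9 for fibroblasts and muscle, and 3, 2 and 3 of 7 for liver and squamous epithelium. Among all sets with a single symbol, 72.5%, 71.7% and 73.9% were above it, and each marker was read by its highest set. The counts therefore do not tell the line from other cells.

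The promoters shown next belong to the members that lay furthest apart between arrays (HOXD10 and HOXD4), to those that hold a PBX-HOX type motif and were above background (HOXA2 and HOXD11), and to HOXC4 and HOXC5, which share 1 start. Each is the 250 bases before the annotated start, 5' to 3' on the gene's strand, from RefSeq on GRCh38.p14. A sequence was found for 10 of the 24 member genes, in 9 distinct windows. Capitals mark each match, on either strand, to TGATNNAT (a motif bound by PBX with HOX proteins), TAATTA (a homeodomain motif), TATAAA (the TATA box) or CCAAT (the core of the NF-Y motif). No matches of different motifs overlapped in the sequences printed.
HOXA2, chr7:27102684-27102933, minus strand: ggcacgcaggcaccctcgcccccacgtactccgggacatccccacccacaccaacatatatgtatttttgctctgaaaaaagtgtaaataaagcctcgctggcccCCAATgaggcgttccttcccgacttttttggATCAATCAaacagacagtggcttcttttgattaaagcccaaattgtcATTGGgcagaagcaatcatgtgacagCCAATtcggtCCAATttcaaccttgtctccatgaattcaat
HOXC4 and HOXC5, chr12:54016638-54016887, plus strand: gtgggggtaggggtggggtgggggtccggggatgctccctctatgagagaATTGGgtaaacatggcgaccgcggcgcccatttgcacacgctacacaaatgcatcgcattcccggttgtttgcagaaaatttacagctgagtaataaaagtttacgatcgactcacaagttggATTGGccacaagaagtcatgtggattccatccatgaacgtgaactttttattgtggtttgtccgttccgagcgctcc
HOXD4, chr2:176151300-176151549, plus strand: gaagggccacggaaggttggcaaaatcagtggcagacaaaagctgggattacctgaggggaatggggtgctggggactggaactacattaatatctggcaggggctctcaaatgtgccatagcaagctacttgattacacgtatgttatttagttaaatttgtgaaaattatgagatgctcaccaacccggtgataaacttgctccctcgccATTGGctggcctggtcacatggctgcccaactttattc
HOXD10, chr2:176116528-176116777, plus strand: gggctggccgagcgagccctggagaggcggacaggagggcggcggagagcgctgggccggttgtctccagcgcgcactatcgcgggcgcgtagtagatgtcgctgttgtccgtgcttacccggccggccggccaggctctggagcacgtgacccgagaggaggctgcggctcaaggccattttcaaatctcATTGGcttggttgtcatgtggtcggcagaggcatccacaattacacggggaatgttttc
HOXD11, chr2:176107030-176107279, plus strand: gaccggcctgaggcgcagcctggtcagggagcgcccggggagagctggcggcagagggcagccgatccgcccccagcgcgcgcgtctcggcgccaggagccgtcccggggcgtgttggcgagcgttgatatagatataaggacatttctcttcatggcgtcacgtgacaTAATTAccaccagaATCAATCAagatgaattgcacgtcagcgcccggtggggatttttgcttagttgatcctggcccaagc

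CCAAT was found before 9 of the 10 member genes, in 8 of the 9 distinct windows, and in 32.0% of all 35116 RefSeq promoter windows of this length. HOXA2 held 4 matches, HOXD4 and HOXD10 1 each, and HOXD11 none. TGATNNAT was found before HOXA2, HOXB1 and HOXD11, and in 6.47% of all windows. TAATTA was found before HOXD11, in 4.35% of all, and TATAAA before HOXD13, in 10.7% of all. The ratio of observed to expected CG dinucleotides had a median of 0.89 in the 7 promoters of genes above background and 0.89 in the 3 of genes not above it (HOXB1, HOXD1 and HOXD12), against 0.56 over all windows. The 7 count the shared window of HOXC4 and HOXC5 for both genes, and its ratio of 0.89 is their median. The first median thus depends on that double count, and no likeness of the classes is read from it. HOXD4 had the lowest of the 10 ratios. The ratio ranged from 0.29 to 0.98 in the first class and from 0.34 to 0.91 in the second, so the classes overlapped. A match describes letters in a window and says nothing about binding here.

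HEK293T cells gave signal for 18 of the 24 HOX genes measured, and by the same probe sets on all 3 arrays. Of the 31 probe sets, 22 were above background on all 3 arrays (71.0%) and 9 on none. At this limit no set crossed the background between guides, whereas with a fixed limit of 5 the arrays had 16, 15 and 17 HOX sets above it. In a bulk sample, fewer cells that express a gene and less RNA per cell cannot be told apart. Among all 19070 probe sets with a single symbol, 72.5% were above background on sgIL1RN1~3, 71.7% on sgTetO, 73.9% on sgTetOmut and 70.6% on all 3, so the share of HOX sets was near that of all sets and is no result about HOX genes. The share on all 3 arrays was close to that on each, so crossing was rare among all sets too. Its absence among 31 sets is likewise no result about HOX genes. The 22 sets stood for 18 of the 24 genes. By cluster, 6 of 9 HOXB genes, 6 of 7 HOXC genes and 5 of 7 HOXD genes had a set above background on all arrays. HOXA was represented by HOXA2 alone, which was above it. By position, 3 of 5 genes with numbers 1 to 3, 7 of 9 with numbers 4 to 8, and 8 of 10 with numbers 9 to 13 were above background. By set these were 3 of 6, 10 of 13 and 9 of 12, beside 70.6% of all sets. A gene counts here by any of its sets, and no share over all genes was counted. The gene counts are therefore no result about HOX genes. The gene table names 39 HOX genes, and the other 15, among them 10 of 11 in HOXA, have no set named here and were not analysed.

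**Figure D1:**
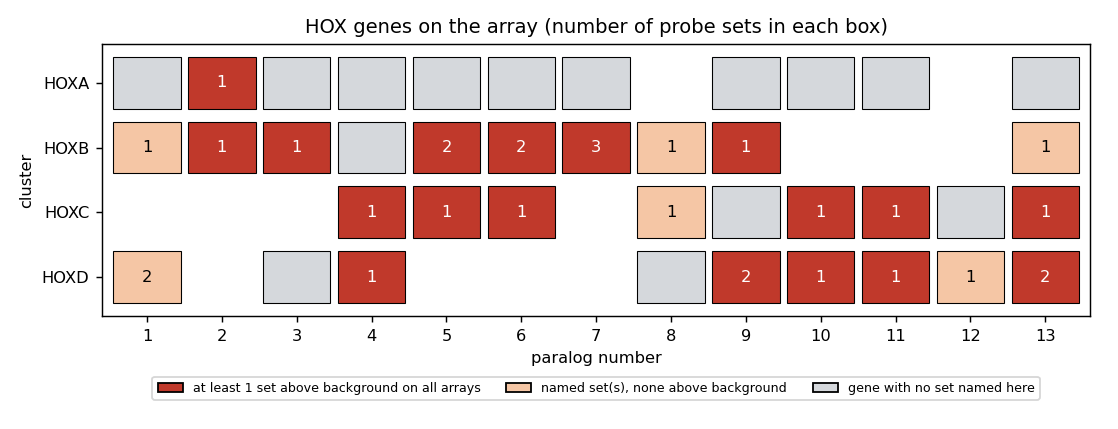
HOX genes by cluster (rows) and paralog number (columns), with the number of probe sets in each box. Red boxes are the 18 genes with at least 1 set above the highest Bacillus value on all 3 arrays, pale boxes the 6 genes with none, and grey boxes the 15 genes with no set named here. Genes above background are found at low, middle and high numbers, and no share over all genes was counted to set beside them.

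Among the paralogs of number 1 to 3, which pattern the hindbrain and the neural crest that leaves it, HOXA2 and HOXB2 read well above background. HOXA2 (probe set 214457_at), which specifies the second branchial arch, read 8.96 with sgIL1RN1~3, 9.31 with sgTetO and 9.05 with sgTetOmut. It was highest with sgTetO, by 0.36 over sgIL1RN1~3 and 0.26 over sgTetOmut. HOXB2 (205453_at), a hindbrain regulator, read 7.96, 8.04 and 8.06 in the same order of arrays, and the 3 values lay within 0.10. HOXB3 (208414_s_at) was close to background at 3.74, 3.78 and 3.74. HOXB1 (208224_at), which acts in a single hindbrain segment, was not above background, at 3.21, 3.21 and 2.73, and neither were both HOXD1 sets, whose values lay between 2.42 and 2.91.

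The middle paralogs, of number 4 to 8, act from the neck to the trunk, and 10 of their 13 sets were above background. HOXC4 (206194_at) read 9.78 with sgIL1RN1~3, 9.74 with sgTetO and 9.74 with sgTetOmut. HOXC6 (206858_s_at) read 7.96, 8.0 and 8.02. Both genes were thus level across guides, with ranges of 0.04 and 0.06 log2 units. HOXC5 (206739_at), whose annotated start is that of HOXC4, read 4.64, 4.76 and 5.04, and was lowest with sgIL1RN1~3 and highest with sgTetOmut. HOXD4 (205522_at), expressed from the hindbrain backwards in the mouse, showed the same order with a wider spread, at 6.79 with sgIL1RN1~3, 7.10 with sgTetO and 7.31 with sgTetOmut. HOXC8 (221350_at) and HOXB8 (221278_at) were not above background, and HOXC8 had the identical value of 2.17 on all 3 arrays.

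HOXB5, HOXB6 and HOXB7, neighbours in the HOXB cluster, were each read by more than 1 set. HOXB7 was read by 204779_s_at at 8.69 with sgIL1RN1~3, 8.79 with sgTetO and 9.01 with sgTetOmut, and by 216973_s_at at 8.58, 8.68 and 8.79. These 2 sets put the arrays in the same order. The third, 204778_x_at, read 4.67, 4.63 and 4.54 and put them in the opposite order; the x in its name marks a set in which some probes match other transcripts too. HOXB6 read 7.50, 7.58 and 7.69 by 205366_s_at, while its other set, 205365_at, was not above background. HOXB5 read 6.66, 6.78 and 6.66 by 205601_s_at, and 3.87, 3.87 and 3.78 by 205600_x_at. Of the 6 genes with more than 1 set, HOXB6 and HOXD13 had 1 set above background and 1 not, so for those genes the call depends on the set.

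The paralogs of number 9 to 13 act in the lumbar to tail region, the limbs and the urogenital tract, and 9 of their 12 sets were above background. HOXD9 (205604_at) read 8.10 with sgIL1RN1~3, 8.22 with sgTetO and 8.31 with sgTetOmut, and its second set, 205605_at, lay near background at 3.94, 3.84 and 3.86. HOXC10 (218959_at), known in the mouse for lumbar motor neurons, read 8.17, 7.86 and 8.0. HOXD13 (207397_s_at), which shapes the digits, read 7.36, 7.23 and 7.25. HOXC10, HOXD13 and the second HOXD9 set were thus highest with sgIL1RN1~3, while HOXD9 set 205604_at was lowest there. The second HOXD13 set, 207398_at, was not above background, at 3.36, 3.00 and 3.21. It was the nearest of the 9 such sets to the limit on sgIL1RN1~3 and sgTetOmut, and HOXB1 was the nearest on sgTetO.

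HOXC13 (219832_s_at), needed for hair and nails, read 6.67 with sgIL1RN1~3, 6.34 with sgTetO and 6.42 with sgTetOmut. Both measured paralogs of number 11 were above background: HOXD11 (214604_at) at 6.21, 6.03 and 6.25, and HOXC11 (206745_at) at 5.63, 5.49 and 5.79. Both were lowest with sgTetO and highest with sgTetOmut. HOXD10 (207373_at), which acts in the limb and spinal cord, read 5.46, 4.86 and 5.46, with the same value on sgIL1RN1~3 and sgTetOmut. HOXB9 (216417_x_at) read 4.52, 4.36 and 4.52. HOXB13 (209844_at), a prostate and tail regulator, and HOXD12 (221411_at) were not above background, between 2.46 and 3.03 on all arrays.

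**Figure D2:**
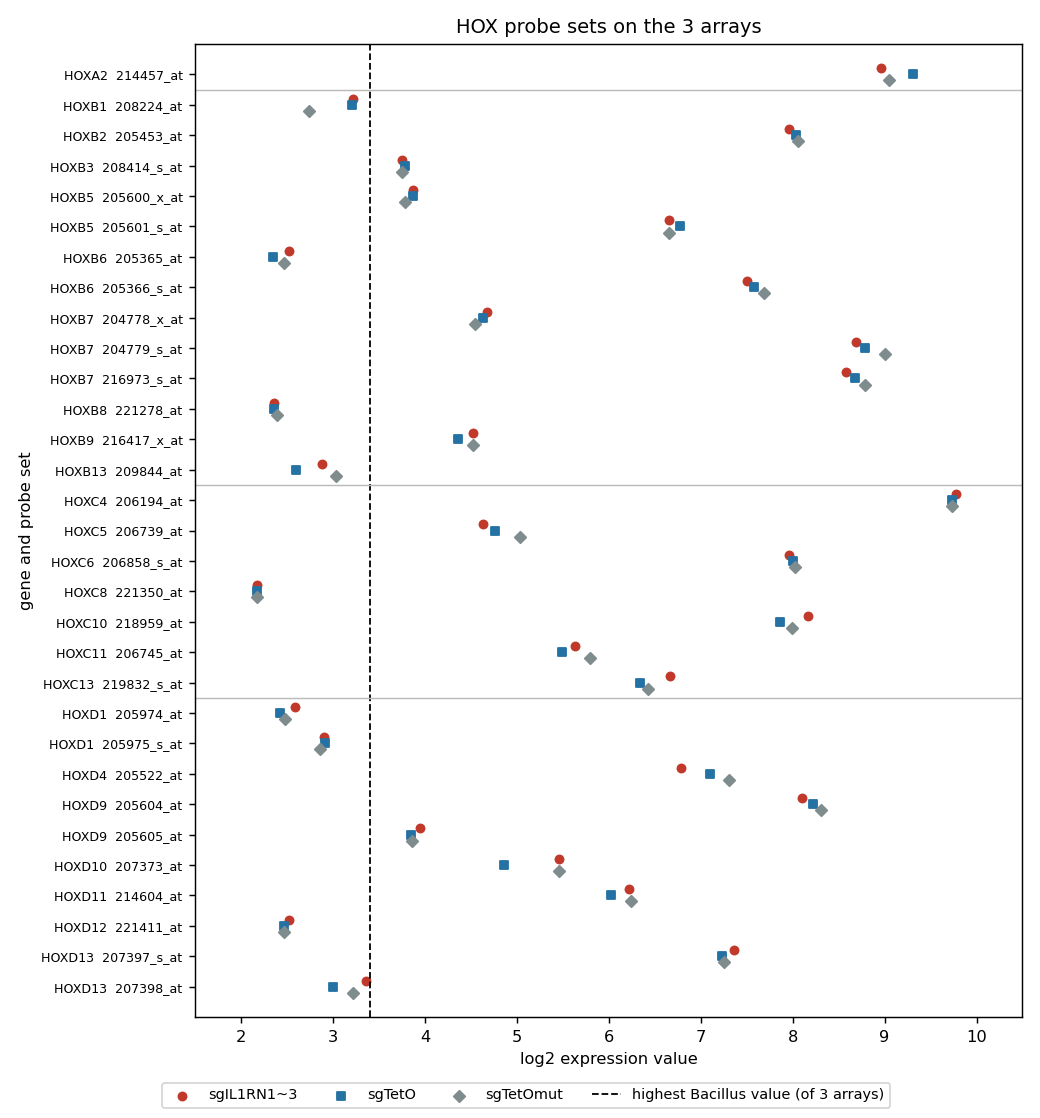
Log2 expression value of each of the 31 HOX probe sets (rows, by cluster and paralog number) on the sgIL1RN1~3, sgTetO and sgTetOmut arrays. The dashed line is the highest Bacillus value of the 3 arrays, 3.40. For most sets the 3 symbols nearly coincide, and the 9 sets left of the line have all 3 symbols there.

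No HOX probe set was 2-fold apart between any of the 3 pairs of arrays, with the higher value above background. With sgIL1RN1~3 against sgTetO, 0 of 31 sets were higher and 0 lower, beside 0.184% and 0.168% of all 19070 sets. With sgIL1RN1~3 against sgTetOmut, 0 were higher and 0 lower, beside 0.121% and 0.404%. With sgTetO against sgTetOmut, 0 were higher and 0 lower, beside 0.0157% and 0.325%. Counted against both other arrays at once, 0 HOX sets were above or below on sgIL1RN1~3, beside 0.0524% and 0.0629%. The same count was 0 on sgTetO, beside 0.00524% and 0.0105%, and 0 on sgTetOmut, beside 0.294% and 0%. All these shares were below 1%, so a count of 0 among 31 sets was near the background. For scale, the targeted gene itself, IL1RN, stood at 7.01 on the sgIL1RN1~3 array, with 2.28 on sgTetO and 2.23 on sgTetOmut, by the set that differed most among its 5.

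At a limit of 1.5-fold, 1 HOX set was called, that of HOXD10, with sgTetO. It was lower with sgTetO than with sgTetOmut by 0.60 log2 units, or 1.51-fold, and higher with sgIL1RN1~3 than with sgTetO by the same amount. Of all sets above background, 1.67% were at least as far apart between sgTetO and sgTetOmut, and 5.45% between sgIL1RN1~3 and sgTetO. At this limit 0.991% of all 19070 sets were lower in the first comparison, 2.59% higher in the second, and 0.142% below both other arrays on sgTetO. The other counts at this limit were 0. Among all sets, 1.65% were lower with sgIL1RN1~3 than with sgTetO. With sgIL1RN1~3 against sgTetOmut, 1.67% were higher and 1.57% lower, and 0.341% were higher with sgTetO than with sgTetOmut. Against both other arrays, 1.06% were above and 0.708% below on sgIL1RN1~3, 0.142% were above on sgTetO, and 0.503% were above and 0.0577% below on sgTetOmut. The HOXD10 call was marginal, with a deposited size of 0.595 against a limit of 0.58496 log2 units. Its difference of sgIL1RN1~3 minus sgTetO was 0.56 under quantile scaling, 0.54 under cyclic loess scaling and 0.41 with 16 added to linear values. That of sgTetO minus sgTetOmut was -0.57, -0.5846 and -0.41. All were short of 1.5-fold, the cyclic loess value of -0.5846 only just. HOXD10 had 1 set, so no second reading of it was at hand. Next came HOXD4, lower with sgIL1RN1~3 than with sgTetOmut by 0.53 log2 units, or 1.44-fold, where 6.33% of all sets were at least as far apart. The next was HOXC5, lower by 0.40 with sgIL1RN1~3 than with sgTetOmut, and the other HOX sets above background were closer in each of the 3 comparisons. Values identical on 2 arrays, as for HOXD10, occurred in 8 of the 31 sets. They numbered 3 between sgIL1RN1~3 and sgTetO, where 6.26% of all sets were identical, 5 between sgIL1RN1~3 and sgTetOmut, where 6.03% were, and 2 between sgTetO and sgTetOmut, where 8.08% were.

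The HOX sets as a group lay near 0 in each comparison. For sgIL1RN1~3 minus sgTetO, the 22 sets above background had a median of -0.02 log2 units, against 0.03 over all 14014 sets above background on either array. For sgIL1RN1~3 minus sgTetOmut it was -0.02 against 0.00. For sgTetO minus sgTetOmut it was -0.09 against -0.02. In each comparison 21 of the 22 HOX sets were less than 0.5 log2 units apart, and 9.4%, 7.33% and 2.84% of all sets were at least that far apart. By sign, 10 HOX sets were higher and 11 lower with sgIL1RN1~3 than with sgTetO, where 54.6% of all sets were higher and 41.3% lower. Against sgTetOmut 7 were higher and 11 lower with sgIL1RN1~3, where 49.5% and 46.7% of all sets were. With sgTetO 5 were higher and 17 lower than with sgTetOmut, where 39.1% and 54.8% were, and under both scalings of the arrays these counts became 9 and 13. The share of all sets that were lower moved too, to 45.9% under quantile and 47.5% under cyclic loess scaling. The median size of a difference, whatever its sign, was 0.12, 0.10 and 0.11 for the HOX sets in the 3 comparisons, and 0.16, 0.15 and 0.10 for all sets. The HOX sets therefore differed between the IL1RN guides and either control by about as much as the 2 control arrays differed from each other, as the plot of difference sizes shows.

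**Figure D3:**
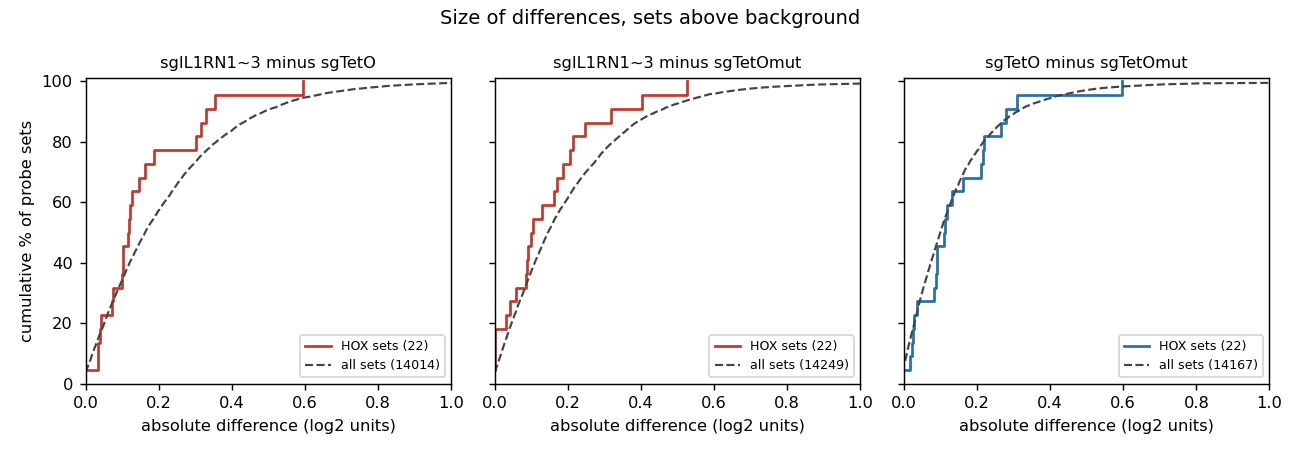
Cumulative percent of probe sets (vertical) against the absolute difference in log2 units (horizontal) for the 3 pairs of arrays. Solid steps are the 22 HOX sets above background and dashed lines all sets with a single symbol above background on either array. HOX sets reach 21 of 22 below 0.5 in each panel.

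The small differences were not spread evenly over paralog numbers or over clusters. With sgTetO, the 9 sets of number 9 to 13 were all lower than with sgTetOmut, by a median of 0.13 log2 units in size, against 7 of 10 lower among numbers 4 to 8 and 1 of 3 among numbers 1 to 3. Over all sets above background 54.8% were lower. With sgIL1RN1~3, 8 of these 9 sets were higher than with sgTetO, with a median of 0.16, while 2 of 10 and 0 of 3 were higher among the middle and low numbers, and 54.6% of all sets. The exception was HOXD9 set 205604_at, at -0.12. The 2 comparisons share the sgTetO array, so a low reading on that array enters both. Against sgTetOmut, which does not share it, sgIL1RN1~3 had 4 of the 9 higher, 3 lower and 2 identical. Under quantile and cyclic loess scaling 8 of 9 were lower with sgTetO than with sgTetOmut, and HOXD13 set 207397_s_at changed sign. Of all sets above background, 45.9% and 47.5% were lower under these scalings. By cluster, on the deposited scale, 6 of 6 HOXC and 6 of 6 HOXD sets were lower with sgTetO than with sgTetOmut. In HOXB 5 of 9 were, and in HOXA 0 of 1. Most high-numbered sets lay in HOXC and HOXD, so number and cluster overlapped. The middle-numbered sets there, HOXC4, HOXC5, HOXC6 and HOXD4, differed by -0.001, -0.28, -0.02 and -0.21 in this comparison. HOXC4 and HOXC6 changed sign under both scalings. In sgIL1RN1~3 minus sgTetO the same sets differed by 0.04, -0.12, -0.04 and -0.32. The parts of number and cluster were not tested. The SD of sgTetO minus sgTetOmut over all sets above background was 0.22. Of the 9 high-numbered sets, 7 were closer than this in that comparison, where 19.7% of all sets above background were at least 0.219 apart. In sgIL1RN1~3 minus sgTetO 6 were closer, where 44.9% of all were at least 0.188 apart and 28.8% at least 0.284. Both counts were near the shares of all sets and are no result about HOX genes. The paralog classes were compared after the values had been seen, and no test was made.

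**Figure D4:**
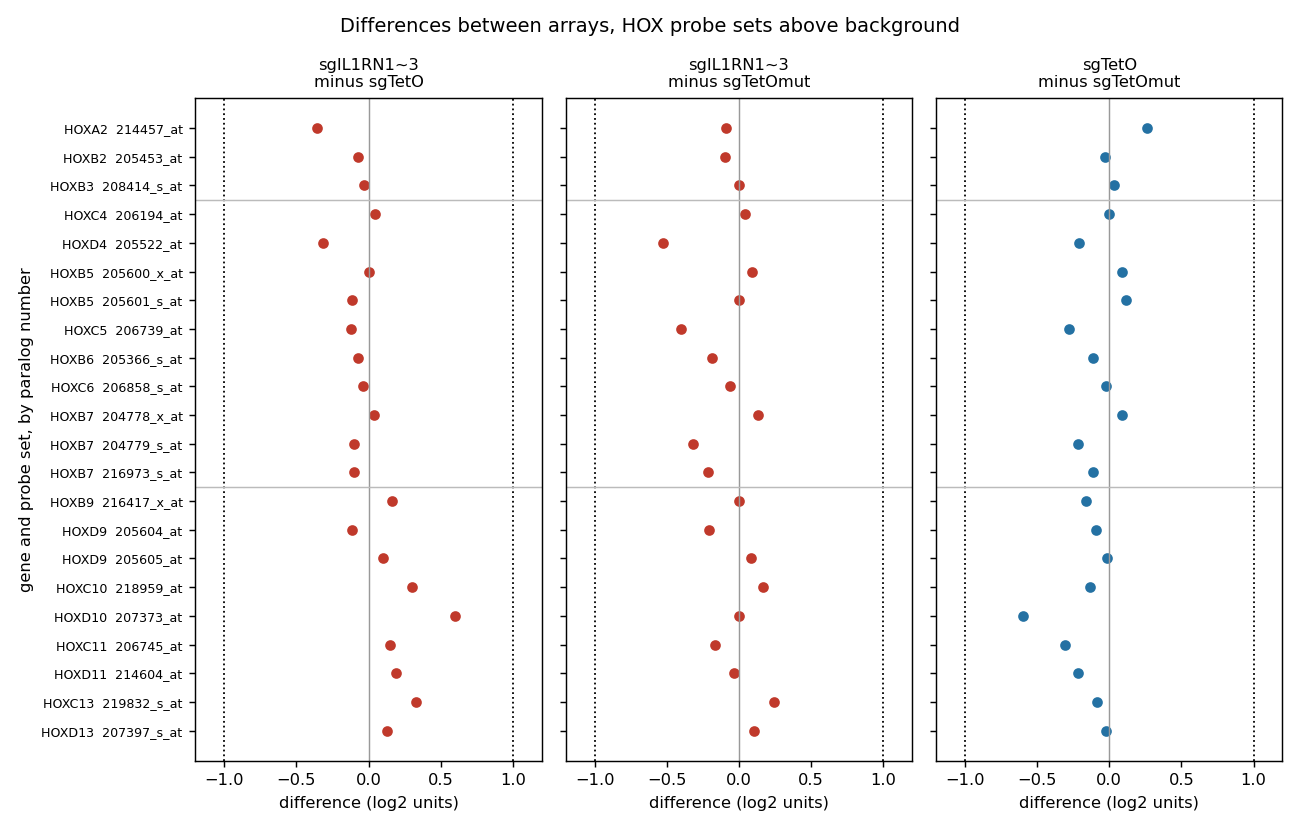
Difference in log2 units for the 22 HOX probe sets above background, ordered from low to high paralog number, for sgIL1RN1~3 minus sgTetO, sgIL1RN1~3 minus sgTetOmut and sgTetO minus sgTetOmut. Dotted lines mark 2-fold, and grey lines part numbers 1 to 3, 4 to 8 and 9 to 13. No point reaches 2-fold, and in the right panel all 9 high-numbered sets lie left of 0 (8 of 9 under the other scalings).

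Arrays differed in 2 other respects. The 5' chip control of ACTB exceeded its sgTetO value by 0.95 and its sgTetOmut value by 0.82 on sgIL1RN1~3, while the 3' control exceeded them by 0.06 and 0.07. For GAPDH the 5' control was 0.84 and 0.66 higher there, while the 3' control differed by -0.01 and 0.03. The middle controls were 0.69 and 0.64 higher for ACTB, and 0.58 and 0.54 higher for GAPDH. For sgTetO minus sgTetOmut the 5' control differed by -0.13 for ACTB and -0.18 for GAPDH. On sgTetOmut 56 of all sets, and 0 HOX sets, passed the 2-fold limit over sgIL1RN1~3 and sgTetO at once. The part of either in the HOX values was not tested.

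Genes that act with or on the HOX clusters were read from lists, by 1 set per gene, the one with the highest mean. Among all sets with a single symbol, 71.7% to 73.9% were above background on an array. Per pair and direction, 0.0157% to 0.404% were 2-fold apart. Taking the highest set of a gene tends to raise the share above background, so the counts for the lists are no result about these genes. All 6 measured HOX cofactors, homeodomain proteins that bind DNA beside HOX proteins, were above background on all arrays. MEIS1 read 7.39 with sgIL1RN1~3, 7.41 with sgTetO and 7.32 with sgTetOmut, and PBX2 read 9.45, 9.49 and 9.54. PBX3 was 0.42 higher with sgIL1RN1~3 than with sgTetO and 0.17 higher than with sgTetOmut. PKNOX1 was 0.39 higher with sgIL1RN1~3 than with sgTetOmut and 0.06 higher than with sgTetO. Its further sets differed by 0.11 to 0.57 from sgTetOmut and by 0 to 0.39 from sgTetO, none of them lower. PKNOX2 was 0.21 and 0.20 lower with sgIL1RN1~3 than with sgTetO and sgTetOmut. Of its further sets above background, 63305_at was 0.23 and 0.27 lower and 219046_s_at 0.34 higher than on each. Of the 6 cofactors, 0 were 2-fold apart in any pair.

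Of 23 Polycomb genes measured, 22 were above background on every array and 0 were 2-fold apart, with a median of 0.01 for sgIL1RN1~3 minus sgTetO and -0.01 for sgIL1RN1~3 minus sgTetOmut. YAF2, a partner of the RING1 proteins, was the furthest from the mean of both controls, 0.55 lower with sgIL1RN1~3 than with sgTetO and 0.15 lower than with sgTetOmut. PHC2 was 0.30 higher than on each control, and SCMH1 0.20 and 0.40 higher than on sgTetO and sgTetOmut. Of 16 MLL and COMPASS genes, 14 were above background on at least 1 array and 0 were 2-fold apart, with medians of 0.17 and 0.08 against sgTetO and sgTetOmut. KMT2A, the MLL1 methyltransferase that maintains HOX expression, was 0.34 and 0.32 higher with sgIL1RN1~3. Of its 5 other sets, 212076_at was 0.79 and 0.28 higher and 220546_at 0.66 and 0.61 lower. Set 212078_s_at differed by 0.13 and 0, 212079_s_at by -0.20 and 0.26, and 216624_s_at was not above background. KMT2D was 0.33 and 0.97 higher by its first set and 0.44 and 0.18 higher by its second. MLLT3 was 0.42 and 0.28 higher by its first set, while its second was 0.07 higher than on sgTetO and differed by -0.01 from sgTetOmut.

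Of 14 upstream regulators measured, 12 were above background on at least 1 array. KAT6A, an acetyltransferase that activates HOX genes, was the 1 gene of the regulator, homeobox and flanking lists that was 2-fold apart in any pair, among 109 measured. It read 8.65 with sgIL1RN1~3, 7.26 with sgTetO and 7.89 with sgTetOmut, and its second set was not above background on any array. The pair past 2-fold was sgIL1RN1~3 against sgTetO, where 0.184% of all sets were higher. RXRB, a partner of the retinoic acid receptors, was 0.52 and 0.34 higher with sgIL1RN1~3 than with sgTetO and sgTetOmut, and GMNN, the replication inhibitor geminin, 0.42 and 0.37 lower. CDX2, a homeobox regulator of posterior HOX genes, read 6.22, 5.92 and 5.94, and CDX4 was not above background. The boundary factor CTCF read 10.92, 10.63 and 10.83.

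Genes that flank the clusters were mostly above background and were not 2-fold apart between guides, as held for most sets on the arrays. Beside HOXA, 4 of 5 measured genes were above background, and EVX1, the homeobox gene next to HOXA13, was not. SKAP2 was 0.57 higher with sgIL1RN1~3 than with sgTetO and 0.25 higher than with sgTetOmut, and TAX1BP1 was 0.31 and 0.23 lower by 1 of its 3 sets. CBX3 was 0.13 and 0.15 lower. Beside HOXB, 6 of 7 were above background, and SNF8, a sorting protein, was 0.63 and 0.69 higher with sgIL1RN1~3. SNX11 was 0.31 and 0.14 higher, and UBE2Z 0.20 and 0.07 higher. Beside HOXC, 7 of 8 were above background, with ITGA5 0.20 and 0.27, SMUG1 0.18 and 0.16, and CBX5 0.06 and 0.18 higher, though the second CBX5 set was 0.24 and 0.16 lower. Beside HOXD, all 6 were, with MTX2 0.24 and 0.29 lower CHN1 0.21 and 0.27 lower, and ATP5MC3 0.35 and 0.05 higher. The medians of the 4 flanking lists for sgIL1RN1~3 minus sgTetO lay between -0.08 and 0.12.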

How the data were processed

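Gene expression was measured on 3 single-channel arrays of HEK293T cells, 1 per guide. The deposited values are log2 values for 22277 Affymetrix probe sets. Their unit was taken from the range of the values, and affy is the package that the submitters' processing notes name for the authors' step. No source used here gives its version, background correction or normalization. The arrays have nearly the same distribution, so a difference is relative to the bulk of genes. Names came from the platform annotation of GEO, in which 19070 sets had 1 symbol, 1043 several and 2164 none listed. Only single symbols were used. The members and lists were chosen with earlier results of these data known. All 31 member sets are accounted for. From each other list, up to 3 genes above background were named, those for which sgIL1RN1~3 lay furthest from the average of the controls, with further genes (PBX2, MEIS1, CDX2, CDX4, CTCF, EVX1) added after their values were seen. Values of the 3 sets shared by HOXD3 and HOXD4, for which the naming rule gave the count only, were likewise added. Marker lists gave counts. The limit was 1 log2 unit (2-fold), with the higher value above the highest of 27 Bacillus sets. Other settings were scaling by quantiles or by cyclic loess (limma 3.58.1, R 4.3.3), other backgrounds, 1.5-fold, 1 set per gene and 16 added to linear values. Python 3.11.15, numpy 2.4.6 and pandas 2.3.3 were used. Counting was tested on simulated data with known differences. No protein sequence was used. The number of arrays limits the precision.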

Additional observations from a re-analysis of the deposited data

How the results depend on the processing

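Counts at the 2-fold limit were 0 for the HOX sets under each alternative run. At 1.5-fold, HOXD10 made the count 1 in place of 0 for sets higher with sgIL1RN1~3 than with sgTetO, for sets lower with sgTetO than with sgTetOmut, and for sets below both other arrays on sgTetO. HOXD10 stayed short of 1.5-fold under quantile scaling, cyclic loess scaling and 16 added to linear values, so the call needs both that limit and the deposited scale. It lay at the edge of the limit: cyclic loess scaling gave -0.5846 for sgTetO minus sgTetOmut, against 0.58496 log2 units. The medians of the HOX sets were small and moved with the setting. For sgIL1RN1~3 minus sgTetO the median was -0.02 as reported and lay between -0.06 and 0.00 over the alternatives. For sgIL1RN1~3 minus sgTetOmut it was -0.02 and lay between -0.05 and 0.00, and for sgTetO minus sgTetOmut it was -0.09 and lay between -0.10 and -0.04. The number of HOX sets above background was 22 under both scalings, 24, 23 and 23 on sgIL1RN1~3, sgTetO and sgTetOmut with the median Bacillus value plus 3 SD as the limit, and 16, 15 and 17 with a fixed limit of 5. With 1 set per gene it was 18. The signs of single small differences depended on scaling: for sgTetO minus sgTetOmut, HOXB2, HOXC4, HOXC6 and HOXD13 (207397_s_at) changed sign under both scalings, and for sgIL1RN1~3 minus sgTetO, HOXB7 (204778_x_at) did. Scaling moved the median of all sets by under 0.1 log2 units. No paired analysis was possible because each guide has 1 array, and leaving out a replicate was not possible for the same reason. Sets near the Bacillus values carry little signal over background, which limits HOXB3, the x_at set of HOXB5 and the second set of HOXD9.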

Other observations

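Probe sets annotated to HOXD3 and HOXD4 together were left out of the counts above. There were 3 of them. One, 206601_s_at, read 5.81 with sgIL1RN1~3, 5.76 with sgTetO and 5.91 with sgTetOmut, and another, 217076_s_at, read 6.68, 6.79 and 6.77, so both were above background and within 0.5 log2 units on all arrays. The last, 206602_s_at, was not above background. The order that the HOXD4 set 205522_at showed, lowest with sgIL1RN1~3 and highest with sgTetOmut, was not seen in either of the sets above background.

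Other homeobox genes of the same class as the HOX genes, which lie outside the clusters, were above background on at least 1 array for 16 of 25 measured genes, and 0 were 2-fold apart in any pair. Among all sets, 71.7% to 73.9% were above background on an array. NKX2-5, a heart regulator, read 6.72 with sgIL1RN1~3, 6.32 with sgTetO and 6.24 with sgTetOmut. HHEX read 5.58, 5.70 and 5.92, while its second set was higher with sgIL1RN1~3 than on both controls, by 0.36 and 0.23. EMX1 lay near background at 3.69, 4.0 and 3.86, and its second set was higher with sgIL1RN1~3 by 0.20 and 0.17.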
